A study of Mus musculus with 198 samples.

Results

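The genes described here are 9 genes of the endoplasmic reticulum (ER) and its stress response: Hspa5, Hsp90b1, Calr, Pdia4, Pdia6, Ddit3, Atf4, Herpud1 and Dnajb9. They were chosen by name from a list of ER stress and ER chaperone genes, and all 9 were found among the 56332 genes counted. Their RNA was measured by total RNA sequencing in 9 whole tissues of 22 C57BL/6 mice. The mice were treated with control (12 mice, 6 female and 6 male) or with an antibody against PAPP-A (10 mice, 5 female and 5 male, called aPAPPA in the labels) for 17 weeks. PAPP-A is a secreted protease that cuts binding proteins of insulin-like growth factors. The labels give no ages, the strain was the same in both groups, and no label names a transgene or a deletion. Each mouse gave 1 library of bone marrow, gonadal fat, heart, kidney, liver, lung, skin, spleen and subscapular fat.

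Proteins that are secreted or sit in membranes are folded in the ER. Hspa5 (BiP) is the Hsp70 chaperone of that compartment, Hsp90b1 (GRP94) its Hsp90 chaperone, Calr (calreticulin) a calcium-binding lectin chaperone of glycoproteins, and Pdia4 and Pdia6 are disulfide isomerases. When unfolded protein builds up, the sensors Ern1 (IRE1), Atf6 and Eif2ak3 (PERK) start the unfolded protein response, in which Xbp1 and Atf6 raise transcription of the chaperones. PERK raises translation of the transcription factor Atf4, which in turn acts on genes such as Ddit3 (CHOP), a factor linked to cell death under lasting stress. Herpud1 is a membrane protein of ER-associated degradation (ERAD), and Dnajb9 (ERdj4) is a J-domain co-chaperone of Hspa5. Liver cells and antibody-secreting plasma cells are known for a large ER.

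The promoters are shown first because they hold the element through which chaperone genes are known to respond together. The ER stress element (ERSE) is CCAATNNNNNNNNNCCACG, and a shorter form, ERSE-II, is ATTGGNCCACG. Both were searched on both strands in the RefSeq promoter windows of the mouse genome (GRCm38.p6, from 250 bases before to 50 bases after each start), which hold all 9 genes. ERSE was present in 4 of the 9 genes (Hspa5, Hsp90b1, Calr and Pdia6) and in 37 of 27025 genes with a window (0.137%). ERSE-II was present in Herpud1 and in 12 genes in all (0.0444%). The sequences run 5′ to 3′ along the gene's strand, with the element in capitals and 15 bases on each side. Where the capitals read CGTGG to ATTGG, the element lies on the opposite strand. All 6 lie upstream of the RefSeq start. They are Hspa5 at chr2:34772010-34772058 (plus strand), Hsp90b1 at chr10:86705623-86705671 and chr10:86705518-86705566 (minus strand), Calr at chr8:84847060-84847108 (minus strand), Pdia6 at chr12:17266476-17266524 (plus strand) and Herpud1 at chr8:94386362-94386402 (plus strand).
Hspa5 ERSE: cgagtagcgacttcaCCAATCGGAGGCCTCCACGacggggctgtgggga
Hsp90b1 ERSE, far: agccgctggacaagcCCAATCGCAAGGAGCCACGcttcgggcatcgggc
Hsp90b1 ERSE, near: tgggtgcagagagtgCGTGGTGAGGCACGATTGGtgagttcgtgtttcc
Calr ERSE: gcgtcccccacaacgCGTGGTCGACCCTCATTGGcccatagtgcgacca
Pdia6 ERSE: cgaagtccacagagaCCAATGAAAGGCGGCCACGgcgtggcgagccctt
Herpud1 ERSE-II: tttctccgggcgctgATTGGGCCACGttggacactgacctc

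The element lay closest to the start in Herpud1 (bases -52 to -42) and Hspa5 (-65 to -47), and farthest in Hsp90b1 (-212 to -194), which carried a second copy on the other strand at -107 to -89. In Pdia6 it lay at -98 to -80 and in Calr at -162 to -144. A second motif, TGACGTG, the core bound by Xbp1 and Atf6, was present in Hspa5 and in 2.22% of genes with a window. TTGCATCA, a core bound by Atf4 and C/EBP factors, was present in Herpud1 and in 1.03%. None of the 4 motifs was in the windows of Pdia4, Ddit3, Atf4 or Dnajb9. A match describes letters and does not show that a factor binds there.

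In the mm10 annotation (GENCODE vM21) all 9 genes are protein coding. The chaperones are Hspa5 (ENSMUSG00000026864.13, chr2:34771970-34777547), Hsp90b1 (ENSMUSG00000020048.13, chr10:86690209-86705509), Calr (ENSMUSG00000003814.8, chr8:84841850-84846934), Pdia4 (ENSMUSG00000025823.9, chr6:47796141-47813430) and Pdia6 (ENSMUSG00000020571.12, chr12:17266545-17284770). The transcription factors are Ddit3 (ENSMUSG00000025408.15, chr10:127290774-127296288) and Atf4 (ENSMUSG00000042406.7, chr15:80255184-80257541). Herpud1 (ENSMUSG00000031770.16) lies at chr8:94386438-94395377 and Dnajb9 (ENSMUSG00000014905.3) at chr12:44205559-44210326. The GENCODE model of Hspa5 begins before the RefSeq start, so its ERSE lies within the GENCODE gene, while the elements of the other genes lie outside theirs.

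Libraries held 4138419 to 19517950 counts. Between 47.4% and 99.5% of them (median 87.4%) fell on 9 abundant features, among them the mitochondrial ribosomal RNAs mt-Rnr1 and mt-Rnr2, which left 33377 to 4694597 usable counts (median 1099967). Levels below are CPM, that is usable counts scaled to a common library size over all libraries together. All markers of the labelled tissue were measured in every tissue, but 5 libraries stood apart. They were gonadal fat of treated male mouse 58, heart of control female mouse 22 and treated male mouse 56, lung of control male mouse 68 and skin of treated female mouse 36. In each of them the tissue's own markers had a mean log2 CPM over 2 lower than the median library of that tissue, and the skin library had only 308 genes with 10 counts or more. In that skin library Pdia6, Ddit3, Atf4, Herpud1 and Dnajb9 had 0 counts, which allows a level of up to 82.8 CPM (3 counts, counting error only). Results that rest on these libraries are given with and without them. Markers of other tissues played no part in this choice. In control subscapular fat 6 skeletal muscle markers summed to 7.03 to 95933 CPM (median 1793), and the part of muscle in the levels there was not tested. In whole tissue, fewer cells of a type and less RNA per cell cannot be told apart.

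Liver held the most RNA of the chaperones, and skin or bone marrow the least. In the 12 control mice the Hspa5 level in liver was 904 to 2536 CPM with a median of 1593, against 276 to 926 (median 764) in heart, 371 to 783 (median 501) in gonadal fat, 241 to 693 (median 503) in kidney and 321 to 648 (median 409) in lung. In subscapular fat it was 256 to 508 (median 381), in spleen 250 to 471 (median 358), in bone marrow 172 to 339 (median 238) and in skin 117 to 244 (median 163). All control liver libraries but the lowest lay above every control library of the 8 other tissues, as the heart maximum of 926 exceeded the liver minimum of 904. Against the mean of the other 8 tissues, Hspa5 was 2.02 ± 0.09 higher in liver on the log2 scale (± SE, edgeR quasi-likelihood test with Benjamini-Hochberg adjustment over 16867 genes, adjusted p = 1.26e-39). Skin lay -1.57 ± 0.12 and bone marrow -0.92 ± 0.12 from the mean of the others (edgeR adjusted p = 1.68e-21 and 1.06e-11).

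**Figure D1:**
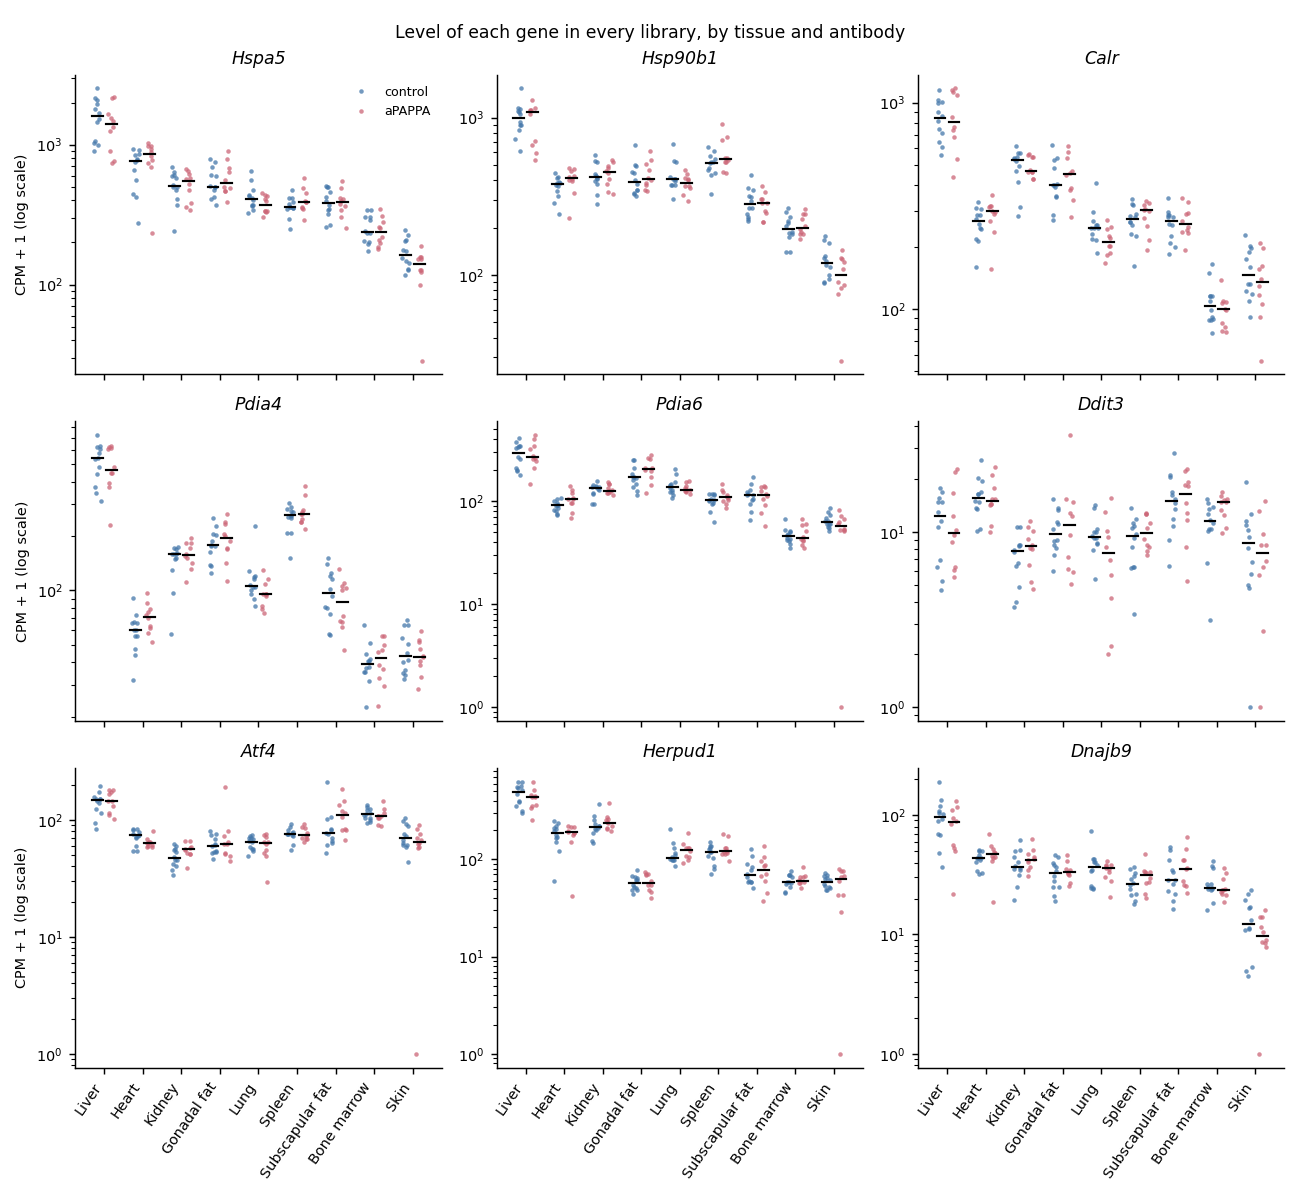
Each panel is 1 gene, the x axis gives the 9 tissues and the y axis the level as CPM + 1 on a log scale. Points are single libraries, coloured by antibody (12 control, 10 aPAPPA per tissue), and black lines are group medians. For Hspa5 the control liver median is 1593 CPM and the control skin median 163 CPM, and the control and treated points overlap in every tissue.

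Hsp90b1, which folds a narrow set of clients such as integrins and Toll-like receptors, had a liver level of 611 to 1536 CPM (median 994) in control mice. Spleen came next with 325 to 645 CPM (median 517), so the highest spleen libraries lay above the lowest liver libraries. Hsp90b1 differed from the mean of the other tissues by 1.65 ± 0.08 in liver, 0.55 ± 0.09 in spleen and -1.74 ± 0.11 in skin (log2 ± SE, edgeR adjusted p = 6.38e-36, 6.21e-08 and 2.20e-27). Calr was at 558 to 1157 CPM (median 837) in liver and 282 to 615 (median 525) in kidney, at the other end 75.4 to 164 (median 103) in bone marrow. The Calr differences were 1.72 ± 0.08 in liver, 0.86 ± 0.09 in kidney and -1.57 ± 0.11 in bone marrow (log2 ± SE, edgeR adjusted p = 1.98e-38, 8.58e-16 and 5.81e-26). Calr thus placed kidney second, where Hsp90b1 placed spleen.

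Of the 5 chaperones, Pdia4 had the widest range over tissues. Its level in control mice was 310 to 725 CPM (median 537) in liver, 151 to 304 (median 259) in spleen, 124 to 251 (median 176) in gonadal fat, 30.9 to 89.7 (median 59.3) in heart and 21.6 to 63.1 (median 38.2) in bone marrow. No control liver library overlapped a control spleen library. The share of all genes without such overlap is not given, so this is a description. Pdia4 differed from the mean of the others by 2.39 ± 0.09 in liver, 1.24 ± 0.10 in spleen, -1.12 ± 0.12 in heart and -1.75 ± 0.13 in bone marrow (log2 ± SE, edgeR adjusted p = 8.39e-46, 5.99e-21, 1.11e-13 and 2.59e-23). Heart therefore lay on opposite sides for Hspa5 (0.67 ± 0.10, edgeR adjusted p = 9.99e-09) and Pdia4. The summed level of 6 measured plasma cell markers in control mice was 360 to 1283 CPM (median 1053) in spleen and 348 to 861 (median 579) in skin. It was 243 to 473 (median 344) in liver and 132 to 324.1 (median 228) in bone marrow. Within spleen 6 of these markers passed the filter on low counts, in bone marrow 3, in skin 2 and in liver 1. The sums therefore rest on different genes and do not rank the tissues by plasma cells. The part of plasma cells in the spleen value was not tested. Pdia6, the other disulfide isomerase, was at 178 to 410 CPM (median 295) in liver, 115 to 250 (median 169) in gonadal fat and 34.1 to 66.3 (median 44.9) in bone marrow. Its differences were 1.52 ± 0.08, 0.71 ± 0.08 and -1.44 ± 0.10 in these tissues (log2 ± SE, edgeR adjusted p = 4.66e-35, 9.41e-13 and 5.22e-25).

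Herpud1 followed another order. Its control level was 301 to 629 CPM (median 494) in liver, 144 to 367 (median 213) in kidney and 59.5 to 249 (median 184) in heart, but 43.0 to 76.3 (median 56.3) in gonadal fat, the tissue where it was lowest. The differences from the mean of the others were 2.27 ± 0.09 in liver, 1.07 ± 0.09 in kidney, 0.72 ± 0.10 in heart and -1.15 ± 0.12 in gonadal fat (log2 ± SE, edgeR adjusted p = 3.20e-46, 9.57e-19, 2.00e-10 and 1.62e-15). In gonadal fat all 5 chaperones were called higher than the mean of the others and Herpud1 lower. Dnajb9 was at 35.4 to 190 CPM (median 95.6) in liver and 3.52 to 22.7 (median 11.3) in skin, with differences of 1.71 ± 0.12 and -1.48 ± 0.17 (log2 ± SE, edgeR adjusted p = 3.77e-25 and 3.50e-13).

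The transcription factors varied less. Atf4, whose protein is set mainly by translation, was at 82.5 to 193 CPM (median 147) in liver, 92.5 to 133 (median 111) in bone marrow and 32.9 to 61.01 (median 45.8) in kidney. It was called higher in liver (0.95 ± 0.09) and bone marrow (0.60 ± 0.09) and lower in kidney (-0.77 ± 0.10) than in the mean of the others (log2 ± SE, edgeR adjusted p = 4.12e-18, 7.73e-10 and 4.85e-11). Atf4 was the 1 gene of the 9 called higher in bone marrow. Ddit3 had few counts, with tissue medians of 5.5 counts (skin) to 21.5 counts (subscapular fat) in control mice. Its levels were 9.15 to 24.8 CPM (median 14.7) in heart, 5.37 to 27.3 (median 14) in subscapular fat, 3.69 to 16.7 (median 11.3) in liver and 2.75 to 9.68 (median 6.81) in kidney. It was called higher in heart (0.67 ± 0.15) and subscapular fat (0.62 ± 0.15) and lower in kidney (-0.62 ± 0.17), while in liver it differed by 0.06 with an edgeR adjusted p of 0.999. The edgeR adjusted p-values of the 3 calls were 6.25e-05, 0.000284 and 0.00127.

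Over the 9 genes and 9 tissues, 28 of 81 differences were called higher, 27 lower and 26 neither at an edgeR adjusted p below 0.05. In liver 8 genes were called higher and 0 lower, where 30.0% of all genes tested were called higher and 36.1% lower. In skin 0 were higher and 7 lower (33.5% and 33.3% of all genes), and in bone marrow 1 was higher and 7 lower (38.4% and 41.7%). Gonadal fat had 5 higher and 2 lower (28.7% and 27.7%), kidney 5 and 2 (30.6% and 30.9%) and heart 4 and 2 (30.9% and 32.8%). Lung had 2 and 1 (29.3% and 26.1%), spleen 2 and 2 (34.4% and 33.4%) and subscapular fat 1 and 4 (31.3% and 21.9%). Each tissue is also part of the mean that the other tissues were set against, so these 9 comparisons share libraries.

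**Figure D2:**
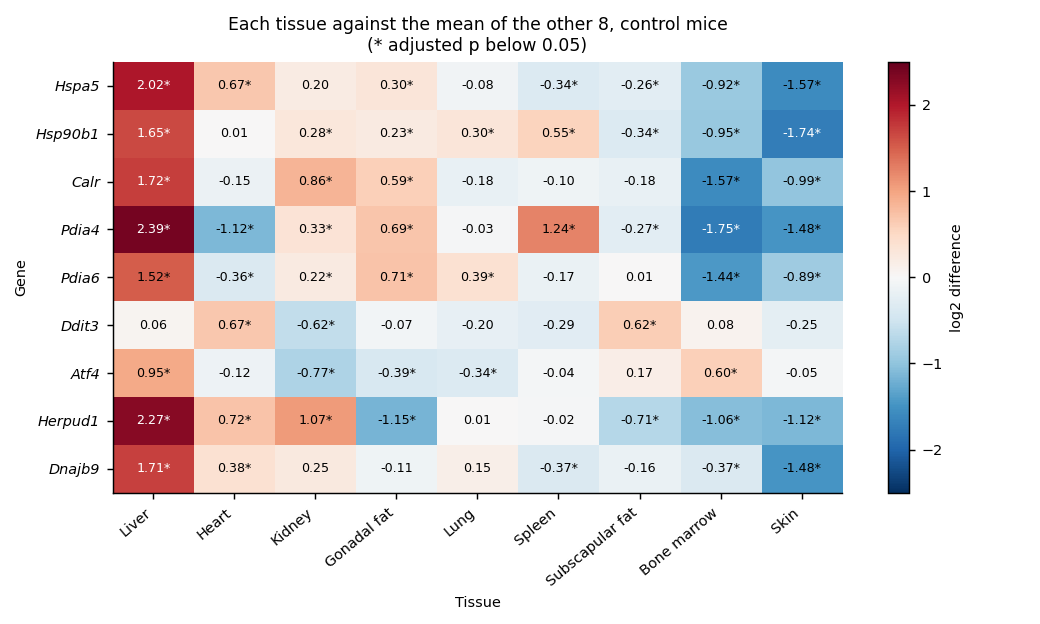
Rows are the 9 genes, columns the 9 tissues, and colour and number give the log2 difference of a tissue from the mean of the other 8 in 12 control mice. Asterisks mark an edgeR adjusted p below 0.05. The liver column holds 8 called differences, from 0.95 (Atf4) to 2.39 (Pdia4), and the skin column 7 that lie below 0.

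How libraries are scaled matters for these levels. Without scaling factors the median of all genes moved from -0.14 to -0.82 in liver, from -0.12 to -0.64 in heart and from -0.02 to 0.40 in spleen (log2). The 8 liver calls remained, from 0.27 (Atf4) to 1.68 (Pdia4), beside 1 gene called lower, and the heart calls became 0 higher and 5 lower, with Dnajb9 turning from 0.38 to -0.14. Spleen became 6 higher and 0 lower and lung 6 and 0, and Hspa5 in spleen turned from -0.34 to 0.10 and Dnajb9 there from -0.37 to 0.07. Without scaling, liver was the highest tissue for 5 of the 9 genes, against 8 of 9 with it.

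Paired within mice, liver exceeded the tissue next in order by 1.23 (log2) for Hspa5, 0.96 for Hsp90b1, 0.78 for Calr, 1.01 for Pdia4, 0.70 for Pdia6 and 1.08 for Herpud1, each in 12 of 12 control mice (exact two-sided sign-flip permutation test, p = 0.000488, the smallest the 12 mice allow, adjusted p = 0.00270 over 72 neighbouring pairs). Dnajb9 was 1.08 higher in liver than in heart in 10 of 12 mice (exact permutation test, adjusted p = 0.00827). Of the 72 neighbouring pairs, 24 were separated in this way. Hspa5 followed the order liver, heart, gonadal fat, kidney, lung, subscapular fat, spleen, bone marrow, skin, and the tissues from heart to spleen did not differ from their neighbours beyond their spread. For Ddit3 none of the 8 neighbouring pairs was separated, and for Atf4 only gonadal fat over kidney was (0.35, 11 of 12 mice, exact permutation test, adjusted p = 0.0130). In the 10 treated mice the highest tissue was the same for all 9 genes and the lowest for 5, as Pdia6, Ddit3, Atf4 and Herpud1 were lowest in skin there (a group that holds the library of mouse 36), and 23 pairs were separated.

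To set genes beside each other, levels were divided by the joined length of all annotated exons of a gene (4.23 kb for Hspa5, 2.88 kb for Calr). The transcripts present may be shorter, so the order of the genes is approximate. Hspa5 had the highest mean level of the 9 in liver (378 CPM per kb), heart (162) and bone marrow (60.0), Calr in kidney (169), gonadal fat (145) and skin (53.4), and Hsp90b1 in spleen (125) and lung (107). In subscapular fat Hspa5 (91.9) and Calr (89.4) stood side by side. Ddit3 was the lowest of the 9 in each tissue, at 3.69 to 8.80 CPM per kb. Over the tissue means of control mice, Hspa5 had a Pearson r of 0.96 with Dnajb9, 0.91 with Hsp90b1 and 0.82 with Herpud1 (9 tissues, a description). It was 0.33 with Ddit3 and 0.28 with Atf4. These genes share the liver libraries as their highest point, except Ddit3, which was highest in heart.

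The other genes of the pathway were described by list. In liver, 16 of 20 other ER chaperones and folding enzymes, 14 of 17 ERAD genes and 12 of 13 translocon and signal peptidase genes were called higher, with P4hb, a disulfide isomerase and prolyl hydroxylase subunit, at 2.90 and Derl2, an ERAD membrane protein, at 2.45 (log2). The medians of these lists were 1.31, 1.12 and 1.00, beside -0.14 over all genes tested. Of 15 other PERK and integrated stress response targets, 2 were called higher and 8 lower in liver (median -0.68), with the transcription factor Atf5 at 4.24. Of 11 UPR sensors and transcription factors 5 were higher and 3 lower, and the liver factor Creb3l3 was at 8.47. In spleen, 8 of the 20 other chaperones were higher and 7 lower (median 0.03), among them the oxidase Ero1lb at 1.98. The ERAD gene Derl3, also one of the plasma cell markers, was at 3.38 there. In skin 1 of 20 was higher and 17 lower (median -0.68). Of all genes tested, 30.0% were called higher and 36.1% lower in liver, 34.4% and 33.4% in spleen and 33.5% and 33.3% in skin. The spleen counts of the other chaperones lay near these shares.

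None of the 9 genes was called as differing between mice given the antibody against PAPP-A and control mice in any tissue. Of 81 possible tests 77 were made, as Ddit3 did not pass the filter on low counts in kidney, liver and skin, nor Dnajb9 in skin. At an edgeR adjusted p below 0.05, 0 of 77 were called, and 0.00776% of all genes tested in bone marrow and 0% in each of the other 8 tissues. The smallest adjusted p was 0.712, and 2 of the 77 (2.60%) had an unadjusted p below 0.05, beside 4.61% of all treatment tests. In simulated counts the test within a tissue recovered 4.69% (subscapular fat) to 64.6% (bone marrow and kidney) of 1.5-fold changes. For 2-fold changes it recovered 35.9% (subscapular fat) to 100% (spleen), so small changes could be missed. The changed genes were drawn at random from all genes tested in the tissue, so these shares are not the recovery for the 9 genes. In subscapular fat the SE of the 9 genes ran from 0.11 (Calr) to 0.21 (Atf4) on the log2 scale. Treated minus control differences ran from -0.34 to 0.34 (log2), and their approximate 95% intervals from -0.87 to 0.82. The intervals were taken from the SE with a normal quantile, so they are somewhat narrower than the edgeR test implies. For Hspa5 in skin the interval was -0.60 to -0.01, while the unadjusted edgeR p was 0.0519.

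For Hspa5 in heart, the level was 276 to 926 CPM (median 764) in control and 233 to 1034 (median 855) in treated mice, and the groups overlapped nearly throughout (0.26 ± 0.21 on the log2 scale, p = 0.226 unadjusted). In skin it was 117 to 244 (median 163) in control and 27.6 to 186 (median 139) in treated mice (-0.30 ± 0.15, unadjusted edgeR p = 0.0519, adjusted p = 1), where the lowest treated library was that of mouse 36. In liver it was 904 to 2536 (median 1593) and 738 to 2200 (median 1405), a difference of -0.13 ± 0.14. The remaining Hspa5 differences were -0.16 in lung, 0.14 in spleen, -0.10 in bone marrow, 0.10 in gonadal fat, 0.02 in kidney and -0.00 in subscapular fat. They had no common sign, and the treated range overlapped the control range in all 9 tissues.

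The smallest unadjusted p in heart was that of Pdia6, at 72.2 to 107 CPM (median 90.3) in control and 68.1 to 139 (median 104) in treated mice (0.24 ± 0.11, edgeR p = 0.0423, adjusted p = 1). In lung it was that of Calr, at 185 to 408 CPM (median 247) in control and 165 to 268 (median 210) in treated mice (-0.23 ± 0.11, edgeR p = 0.0474, adjusted p = 0.712). Without the lung library of mouse 68, Calr differed by -0.15 ± 0.09 (unadjusted edgeR p = 0.0976, adjusted p = 0.891). In the 7 other tissues the smallest unadjusted p lay between 0.0519 and 0.343. These were Hspa5 in skin and in liver, Hsp90b1 in spleen (0.23, p = 0.0632), Ddit3 in bone marrow (0.28, p = 0.0835), Pdia6 in gonadal fat (0.25, p = 0.0989), Atf4 in kidney (0.17, p = 0.111) and Atf4 in subscapular fat (0.34, p = 0.122). Without the 2 heart libraries in doubt, 5 of the 9 genes in heart had an unadjusted p below 0.05, each higher in treated mice (Pdia6 0.27, Pdia4 0.36, Hspa5 0.31, Dnajb9 0.24 and Hsp90b1 0.20), and the smallest adjusted p was 1.00. In that fit 2.22% of all heart genes had an unadjusted p below 0.05 and 0.952% were also higher in treated mice, and the levels of the 5 genes are not independent of each other. Atf4 in subscapular fat ranged from 50.8 to 212 CPM in control and 65.7 to 183 in treated mice, so its spread was wide in both groups. In gonadal fat Atf4 differed by 0.21, and by -0.02 without the library of mouse 58, which held 190 CPM.

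**Figure D3:**
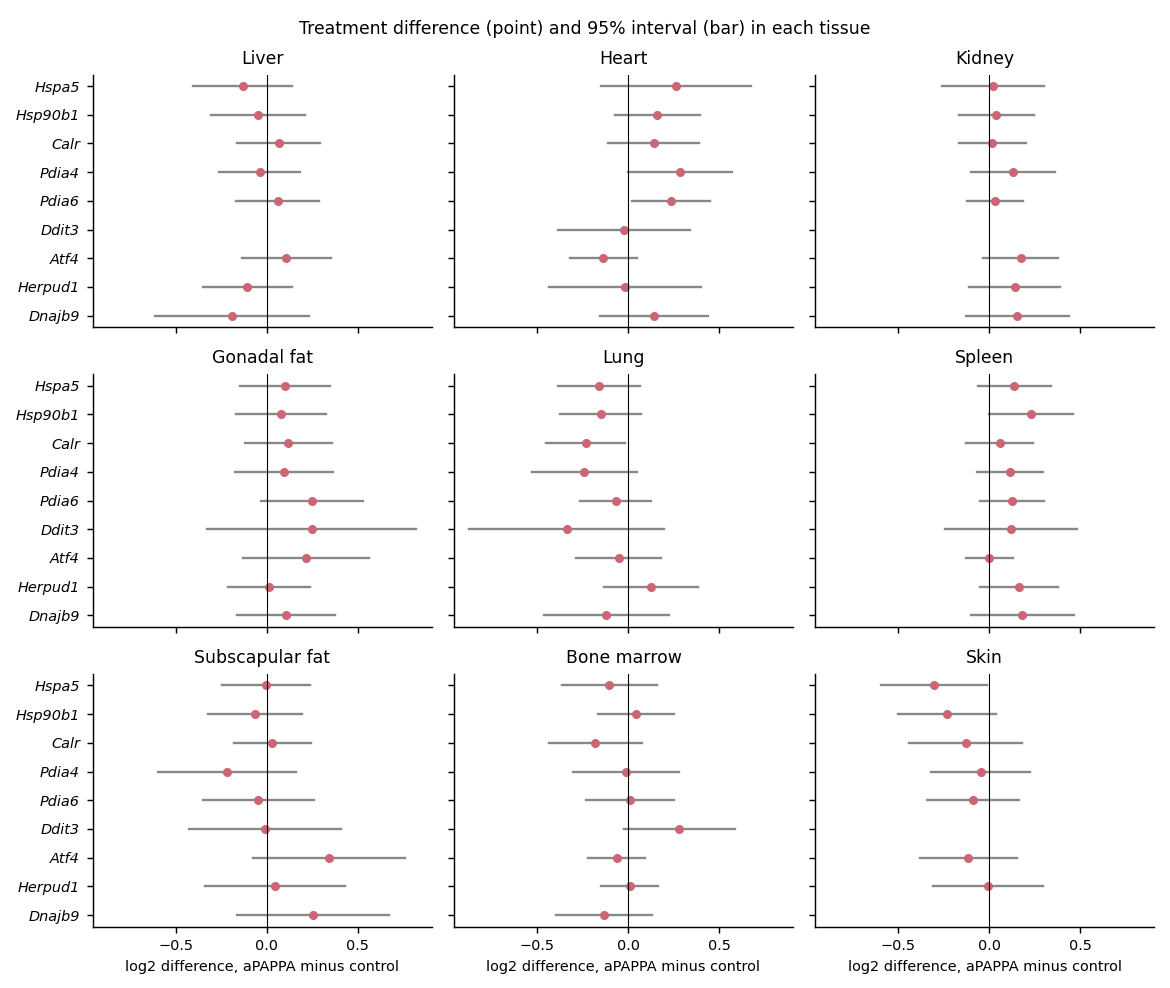
Panels are tissues, the y axis lists the 9 genes and the x axis gives the aPAPPA minus control difference on the log2 scale. Points are edgeR estimates and bars approximate 95% intervals from a normal quantile (12 control, 10 aPAPPA mice per tissue). The bars are somewhat narrower than the edgeR test implies. For Hspa5 in skin the bar runs from -0.60 to -0.01 beside an unadjusted edgeR p of 0.0519. Estimates lie between -0.34 and 0.34, and a gene without a point did not pass the filter.

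Averaged over the tissues of each mouse, 7 of the 9 genes passed the filter everywhere. Hspa5 differed by -0.04 ± 0.07 with an approximate 95% interval of -0.17 to 0.09 (limma, adjusted p = 0.886). Over the 7 genes the intervals, also from a normal quantile, ran from -0.17 to 0.13. None was called by limma, as were 0% of the 6458 genes tested, and none had an unadjusted p below 0.05. The treatment difference was not called as differing between tissues for any of the 9 (edgeR F-test), beside 1.82% of all genes. Atf4 had the smallest unadjusted p in that test (0.101). In simulated counts with changes placed in liver alone, the F-test recovered 1.54% of 1.5-fold, 8.33% of 2-fold and 63.5% of 4-fold changes. It thus missed most of the simulated 1.5-fold and 2-fold changes. The changed genes were drawn at random from all genes tested, so the recovery for the 9 genes was not measured. Of the other lists (20 ER chaperones, 17 ERAD genes, 15 PERK targets, 11 sensors and factors, 13 translocon genes and 10 cytosolic heat shock genes), no gene was called in any tissue.

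Sex was a second grouping. Of 77 tests 6 were called, all higher in males, 4 in liver and 2 in gonadal fat. In liver the Hspa5 level was 738 to 1539 CPM (median 1053) in 11 females and 904 to 2536 (median 1955) in 11 males. The female minus male difference was -0.57 ± 0.14 on the log2 scale (edgeR adjusted p = 0.00348). Liver Pdia6 was at 146 to 324.4 CPM (median 209) in females and 245 to 441 (median 343) in males (-0.41 ± 0.12, edgeR adjusted p = 0.0104). For Calr the values were 434 to 1084 (median 711) and 680 to 1175 (median 1006), and for Pdia4 229 to 611 (median 438) and 394 to 725 (median 604). These differences were -0.35 ± 0.12 and -0.33 ± 0.11 (edgeR adjusted p = 0.0239 and 0.0301). The ranges overlapped for each of the 4 genes, and 28.4% of all liver genes tested were called for sex, 12.8% being higher in males.

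In the 6 female and 6 male control mice alone, the 4 liver calls remained, beside 18.7% of all genes. Here Hspa5 ran from 904 to 1515 CPM in females and 1672 to 2536 in males, Calr from 558 to 817 and 858 to 1157, and Pdia4 from 310 to 532 and 541 to 725, with no overlap between the sexes. Pdia6 ran from 178 to 324.4 and 266 to 410 and overlapped. The share of all liver genes without overlap between the sexes was not computed, so these ranges are a description. In the 5 and 5 treated mice the Hspa5 ranges were 738 to 1539 and 904 to 2200 CPM and overlapped. The sex by treatment term was called for none of the 77 (edgeR), as for 0.00835% of genes in spleen and 0% in the other 8 tissues. Of the 77 terms 3 (3.90%) had an unadjusted p below 0.05, beside 3.94% of all such tests.

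**Figure D4:**
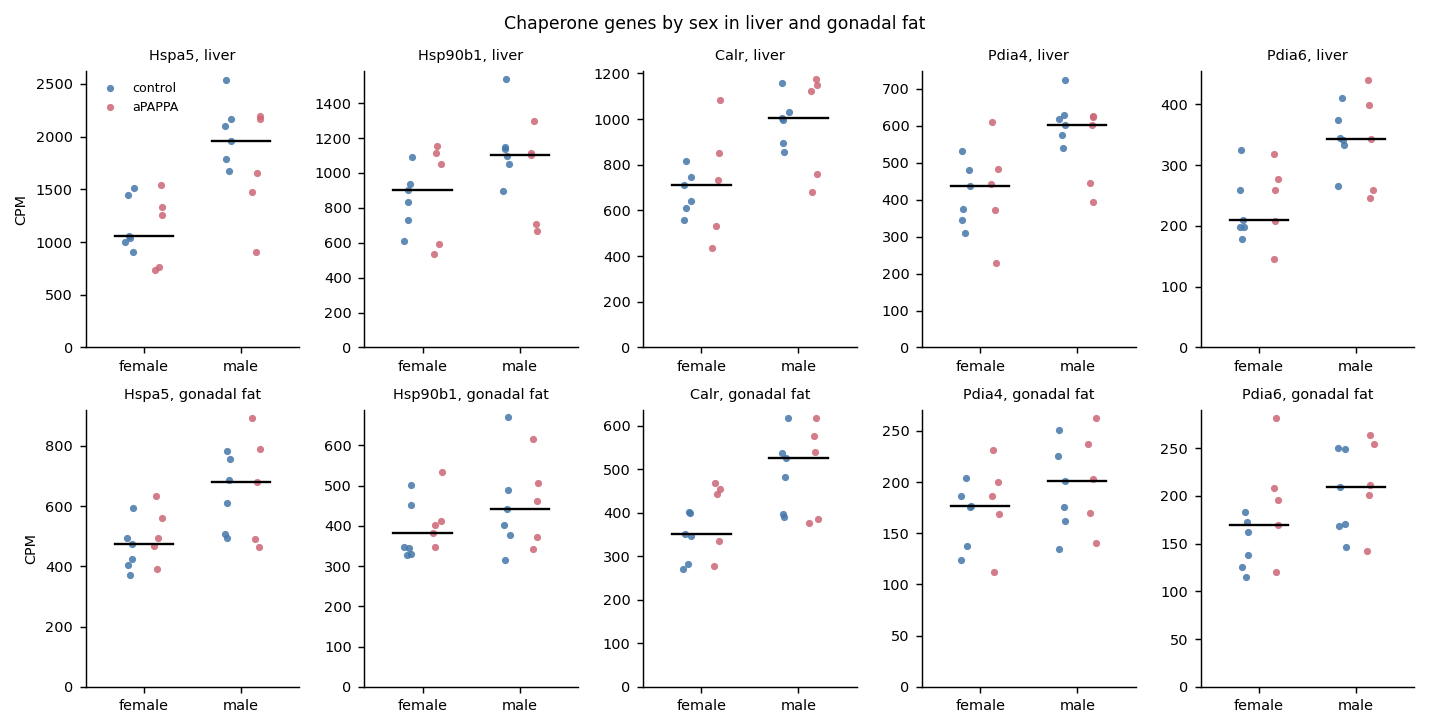
The upper row is liver and the lower row gonadal fat, with 1 panel for each of the 5 chaperones, sex on the x axis and CPM on the y axis from 0. Points are single mice coloured by antibody, and black lines are the medians of 11 mice. In liver the median Hspa5 level is 1053 CPM in females and 1955 in males.

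Usable depth moved with sex in liver, with a median of 774623 counts in females and 1121470 in males. With the log of the usable count as a covariate, an alternative chosen after the data were seen, Hspa5 (-0.49, edgeR adjusted p = 0.0164) and Pdia6 (-0.34, adjusted p = 0.0417) were still called, Calr (-0.29, adjusted p = 0.0897) and Pdia4 (-0.25, adjusted p = 0.115) were not, beside 22.8% of all liver genes. The 7 hepatocyte markers summed to 58868 to 209583 CPM in females and 86679 to 163762 in males, and 1 of the 7 was called lower in females. Of 6 fibroblast markers 3 were higher in females, as were 2 of 5 macrophage markers tested, and 2 of 5 erythroid markers were lower, and the part of these cells in the sex differences was not tested.

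Around the 4 genes in liver, 8 of 20 other ER chaperones and folding enzymes were called higher in males and 0 lower, with a median of -0.26 beside 0.02 over all genes. The oxidase Ero1lb (-0.75) and the disulfide isomerases P4hb (-0.44) and Pdia3 (-0.42) had the smallest p-values. Of 16 ERAD genes 5 were higher in males, among them Sel1l (-0.37), a subunit of the Hrd1 ligase, and Nploc4 (-0.31). Of 13 translocon and signal peptidase genes 5 were higher in males, with Sec11c at -0.56, Spcs3 at -0.45 and Ssr1 at -0.30. The sensor Atf6 (-0.25) and Creb3l3 (-0.54) were the 2 of 7 sensors and factors called, both higher in males. Of 5 PERK targets tested 1 was called, the lipoprotein receptor Vldlr, higher in females (1.34), and Atf4 differed by -0.05 ± 0.12 (edgeR adjusted p = 0.797).

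In gonadal fat Hspa5 was at 371 to 632 CPM (median 475) in females and 465 to 894 (median 679) in males, and Calr at 270 to 468 (median 352) and 377 to 619 (median 525). The female minus male differences were -0.41 ± 0.13 and -0.42 ± 0.12 (edgeR adjusted p = 0.0299 and 0.0231), in a tissue where 15.1% of all genes were called for sex and 8.59% were higher in males. In control mice alone, with fewer mice, the differences were -0.46 and -0.51 and neither was called (edgeR adjusted p = 0.0898 and 0.0512, beside 6.66% of genes). Without mouse 58 Hspa5 differed by -0.36 and was not called (edgeR adjusted p = 0.0541). With depth as a covariate both were called, as was Atf4 (edgeR adjusted p = 0.0454), beside 14.4% of genes. Macrophage markers summed to 773 to 2783 CPM (median 1831) in females and 1611 to 8892 (median 3571) in males, 6 of the 7 were called higher in males, and their part in these results was not tested. Herpud1 had the opposite sign there (0.23 ± 0.11, edgeR adjusted p = 0.193) and was not called.

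In the 7 remaining tissues edgeR called no gene of the 9 for sex. In subscapular fat DESeq2 called Hspa5 (-0.32, adjusted p = 0.0176) and Ddit3 (-0.57, adjusted p = 0.0296) higher in males. Median usable depth in that tissue was 971995 counts in females and 1739130 in males. With depth as a covariate neither gene was called (edgeR adjusted p = 0.443 and 0.465). Nor was either called in control mice alone (edgeR adjusted p = 0.220 and 0.181). The shares of all genes that edgeR called for sex were 26.1% in kidney, 15.5% in subscapular fat and 4.53% in spleen. They were 0.721% in bone marrow, 0.313% in skin, 0.187% in heart and 0.140% in lung. In kidney, with depth as a covariate, Calr (-0.25) and Pdia4 (-0.26) were called higher in males (edgeR adjusted p = 0.0200 and 0.0430), beside 29.0% of genes. Depth itself was called in kidney for Hsp90b1, Pdia4 and Hspa5, beside 6.57% of genes, and for none of the 9 in the other 8 tissues. An F-test of whether the sex difference varied between tissues, added after the data were seen, called 6 of the 9 (edgeR adjusted p from 0.00644 for Pdia6 to 0.0442 for Atf4), beside 33.2% of all genes. It did not call Hsp90b1 (0.183), Ddit3 (0.146) or Dnajb9 (0.335).

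Within a tissue, the levels of the 5 chaperones went together from mouse to mouse. Pearson r was taken over the 22 mice of a tissue after the means of each sex and treatment were removed, for 36 pairs of genes in 9 tissues, each relation with a two-sided permutation p from 100000 resamples. Of all these relations, 178 had an adjusted p below 0.05 for r and 140 for both r and Spearman's rho. Among the 90 relations between 2 chaperones, 83 were called for r and all of these were positive, with a median r of 0.77 and a median rho of 0.72. Leaving out the 2 mice farthest from the median gave a median r of 0.70. Liver had the highest chaperone median (r 0.88, rho 0.87), and bone marrow had r 0.72 (rho 0.69). Without the libraries in doubt the median was 0.63 in heart and 0.49 in skin, from 0.74 in each with them. Among the 234 other relations 95 were called for r, 82 of them positive.

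These relations share library and depth. The r of the chaperone mean with the log usable count was 0.83 in skin (0.41 without mouse 36), 0.76 in kidney, 0.61 in liver, 0.51 in spleen and 0.21 in heart (0.49 without its 2 libraries in doubt), and 0.02 to 0.11 in gonadal fat, bone marrow, lung and subscapular fat. With depth regressed out 145 relations were called, 75 of them among the 90 of the chaperones, and without the libraries in doubt 149 and 77. In skin the shallow library of mouse 36 carried most relations: 30 of 36 were called with it and 11 without it. As a description, the median r of Hspa5 with 6442 genes was -0.01 to 0.14 in 8 tissues and 0.80 in skin, or 0.10 in skin without mouse 36. The median r of Hspa5 with the 4 other chaperones was 0.73 to 0.86, and the share of the 6442 genes at or above that value was 0.0155% in spleen, 0.186% in kidney, 0.310% in liver, 0.652% in lung, 1.32% to 1.38% in both fats and bone marrow, 8.27% in heart and 23.4% in skin. Without the libraries in doubt the median r of Hspa5 with the 4 was 0.63 in heart and 0.61 in skin, and the shares were 17.8% and 6.60%.

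In subscapular fat Atf4 ran against the chaperones. Its r was -0.85 with Pdia6 (rho -0.80, r -0.75 without the 2 farthest mice, permutation p = 1e-05, the smallest that the resamples can give, adjusted p = 9.26e-05) and -0.84 with Pdia4 (rho -0.85, r -0.76 without the 2 farthest, adjusted permutation p = 9.26e-05). With Hsp90b1 r was -0.74 (rho -0.66, -0.61 without the 2 farthest, adjusted permutation p = 0.000306) and with Calr -0.69 (rho -0.60, -0.73 without, adjusted permutation p = 0.000849). With Hspa5 r was -0.61 (rho -0.53, -0.38 without, adjusted permutation p = 0.00747), which rests in part on those 2 mice. All 5 were called with depth regressed out and without scaling factors. No subscapular fat library was in doubt by its adipocyte markers, but skeletal muscle markers summed to 7.03 to 95933 CPM in the control libraries. Herpud1 went with Atf4 (r 0.80, rho 0.77, 0.82 without the 2 farthest, adjusted permutation p = 9.26e-05) and against Pdia4 (r -0.71, rho -0.72, -0.58 without, adjusted permutation p = 0.000641) and Pdia6 (r -0.70, rho -0.68, -0.57 without, adjusted permutation p = 0.00141). Without scaling factors the relation of Herpud1 with Pdia4 was not called (r -0.37, adjusted permutation p = 0.165), and that with Pdia6 was (r -0.54, adjusted permutation p = 0.0247).

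The makeup of the subscapular fat samples moved with both. Among 64 relations with marker lists in liver and subscapular fat, the chaperone mean had r 0.71 with adipocyte markers (rho 0.73, 0.72 without the 2 farthest, adjusted permutation p = 0.00427), 0.67 with macrophage markers (rho 0.66, 0.61 without, adjusted p = 0.00576, permutation) and -0.57 with skeletal muscle markers (rho -0.52, -0.52 without, adjusted p = 0.0249, permutation). Atf4 had r -0.62 with adipocyte markers (rho -0.68, -0.71 without, adjusted p = 0.0166, permutation), -0.74 with macrophage markers (rho -0.62, -0.71 without, adjusted p = 0.00320, permutation) and 0.56 with skeletal muscle markers (rho 0.59, 0.53 without, adjusted p = 0.0249, permutation). The signs for Atf4 and for the chaperones were opposite in each of these 3 lists. The part of the cell makeup in the negative relations was not tested.

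In liver it was Ddit3 that ran against the chaperones, with r from -0.58 (Hspa5, rho -0.64, -0.66 without the 2 farthest, adjusted permutation p = 0.0102) to -0.73 (Hsp90b1, rho -0.75, -0.67 without, adjusted permutation p = 0.000619). Ddit3 had a median of 8 counts in control and 5 in treated liver libraries. With depth regressed out 2 of the 5 relations were called, and without scaling factors 3. The liver chaperone mean had r 0.73 with hepatocyte markers (rho 0.78, 0.75 without, adjusted p = 0.00320, permutation), and Ddit3 had -0.59 (rho -0.56, -0.49 without, adjusted p = 0.0220, permutation), and the part of cell makeup was not tested. Gonadal fat had 10 of 10 chaperone relations called and 1 of 26 others.

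**Figure D5:**
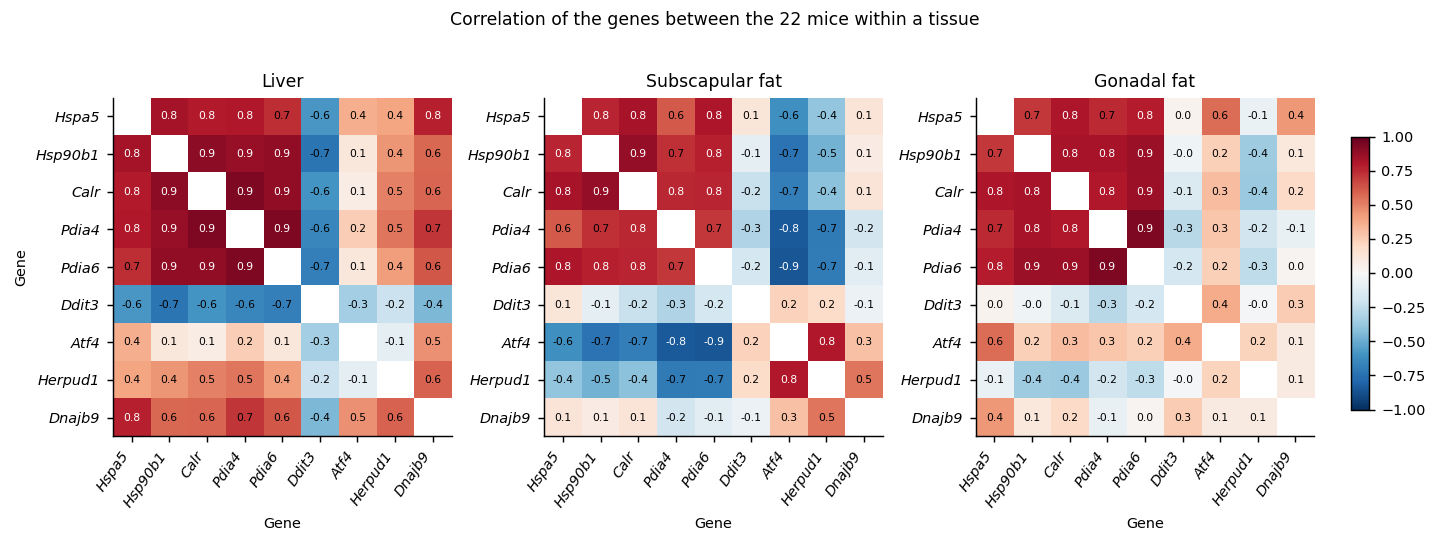
Each square gives Pearson r of 2 genes over the 22 mice of liver, subscapular fat and gonadal fat, after sex and treatment means were removed, with red above and blue below 0. The block of the first 5 genes is positive in all 3 tissues. Atf4 is negative against it in subscapular fat (-0.61 to -0.85), and Ddit3 in liver (-0.58 to -0.73).

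The gene most like the 9 in its variation between mice was another ER chaperone, Canx. Over the 193 libraries not in doubt, with the means of tissue, sex and treatment removed, the mean of the 9 had its highest Pearson r with Canx (0.76), the membrane partner of calreticulin, Prdx1 (0.72), a cytosolic peroxiredoxin, Ssr3 (0.70), of the translocon-associated complex, Magt1 (0.70), of the oligosaccharyltransferase, and Hnrnpk (0.70), an RNA-binding protein, against a median of 0.12 over 6442 genes. The median was 0.52 for translocon genes, 0.49 for cytosolic heat shock genes, 0.47 for other ER chaperones, 0.35 for ERAD genes, 0.19 for PERK targets and 0.14 for UPR sensors and factors. Of the 5 genes outside the 9 that carried ERSE and could be compared, Canx ranked 1 and Dnajc3, an Hspa5 co-chaperone, 7, while Hnrnpa3, Syvn1 and Pan2 ranked 3346, 5625 and 5876. Over the 9 tissue means, the gene most like Hspa5 was Creg1 (0.95), with Tmem214 second (0.94). For Hsp90b1 these were Erap1 (0.96) and Cxcl12 (0.95), for Calr Prkcsh and Igfbp4 (0.97 and 0.96), for Pdia4 Txndc5 and Rcbtb1 (0.95 and 0.94) and for Pdia6 Stt3a and Ddost (0.98 each). Ddit3 was nearest to Zfand5 and Dym (0.92 and 0.89), Atf4 to Fam160b1 and Nfyb (0.93 and 0.92), Herpud1 to Bsdc1 and Kalrn (0.94 and 0.93) and Dnajb9 to Sppl2a and Necap1 (0.96 and 0.95). With 9 points each these are descriptions.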

How the data were processed

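Stranded total RNA of whole tissues was sequenced, per the labels' protocols. The deposited values are estimated counts per gene that the authors made with Salmon on mm10, with FastQC 0.11.5 for read quality, per the submitters' processing notes; no source used here gives the Salmon version or annotation. They were whole numbers, so no rounding was needed. Each mouse counted as 1 replicate per tissue; cages and litters are not given, so p-values measure the spread between these mice.

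CPM were computed without the 9 abundant features, with TMM scaling over all libraries and log2 values with a prior count of 2. The tissue tests also left these features out, while the treatment and sex tests kept them. Leaving them out of the treatment and sex tests was an alternative. For tests within a tissue and for the means over tissues, TMM scaling was done within each tissue. Differences were tested with edgeR 4.0.16 (quasi-likelihood test, filter on low counts, sex and treatment in the model; tissues in control mice) and limma 3.58.1 (means over tissues), run in R 4.3.3, and p-values were adjusted by Benjamini-Hochberg over all genes tested, with a threshold of 0.05. Fits were tested on simulated data. Correlations used Python 3.11.15 and scipy 1.17.1. Alternatives were DESeq2 1.42.0, limma-voom, other scaling and filters, leaving out mice or tissues, the 5 libraries in doubt, depth as a covariate and the mouse number as a replicate block. The number marks the mouse, so it pairs its tissues.

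All 9 genes were named in every tissue. For treatment, Hspa5 and the gene with the smallest p in each tissue were named, for sex every gene called, and for other lists up to 3 genes called, by smallest p (1 such gene is not reported here); Atf4 in gonadal fat, and the genes given beside those by their settings, were chosen after their values were seen. The members and lists were chosen with earlier results of these data known.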

Additional observations from a re-analysis of the deposited data

Results flagged for a closer look

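In each treated group of 10 mice, the highest and the lowest library were compared with the spread of the group (Dixon's test on log2 CPM, which chance alone passes in about 1 in 20 groups). Of 81 treated groups, 17 (21.0%) held such a library. Skin of female mouse 36, the shallow library in doubt, was low for Hspa5 and Hsp90b1 (27.6 CPM each) and listed 0 CPM for Pdia6, Atf4, Herpud1 and Dnajb9, where 0 counts allow up to 82.8 CPM. Heart of male mouse 56, also in doubt, was low for Hspa5 (233.1 CPM, next 696), Hsp90b1 (227.6), Calr (154.5), Herpud1 (40.67) and Dnajb9 (17.55). Gonadal fat of male mouse 58, in doubt as well, was high for Atf4 (189.7 CPM, next 78.7).

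The other 5 were in libraries not in doubt. Pdia4 was low in liver of female mouse 9 (229.4 CPM, next 373). Atf4 was low in kidney of male mouse 62 (38.05) and in lung of female mouse 23 (28.24), and high in heart of male mouse 41 (79.49). Herpud1 was high in kidney of female mouse 36 (375.8 CPM, next 269.7), the mouse whose skin library was shallow.

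The sex difference varied between tissues by the edgeR F-test for 6 genes, with F of 3.402 for Pdia6, 3.313 for Calr, 2.917 for Hspa5, 2.807 for Herpud1, 2.577 for Pdia4 and 2.484 for Atf4. The same number was called without the libraries in doubt, and 33.2% of all genes were called.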

How the results depend on the processing

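Of the values for single genes, 402 kept their direction and side of the threshold under the alternatives, 16 lost their call and 8 changed sign, and of the summary counts 221 stayed within 1.5 times and 21 did not. Without scaling factors Dnajb9 turned to -0.14 in heart and 0.071 in spleen, Hspa5 to 0.10 in spleen, and 6 of the 9 genes were called in lung. The Hspa5 treatment difference in subscapular fat, near 0, became 0.012 with DESeq2, 0.013 with RLE scaling, 0.0058 with abundant features removed and 0.011 with depth as a covariate, and that over tissues 0.0083 without skin. Genes called for sex with DESeq2 numbered 180 in bone marrow, 48 in heart, 59 in lung and 94 in skin (edgeR 93, 21, 18 and 31). In control mice alone they numbered 10 in bone marrow, 788 in gonadal fat, 8 in heart, 1556 in kidney, 7 in lung, 10 in skin, 64 in spleen and 55 in subscapular fat. Without the libraries in doubt they numbered 62 in heart and 62 in skin, and with depth as a covariate 109 in subscapular fat (1707 without it). For treatment DESeq2 called 0 genes in bone marrow and 2 in kidney, and 1 was called in liver without the filter. Genes whose treatment difference varied between tissues numbered 328, 63 with the mouse as a replicate block and 27 without the libraries in doubt. With the replicate block Hspa5 over tissues was -0.04 ± 0.05 (limma, adjusted p = 0.861), and no call of the 9 genes changed. The cause was not tested. Low counts limit Ddit3, and 33377 usable counts limit the skin library of mouse 36.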
